A study of Mus musculus with 9 samples.

Results

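Cxcl1, Cxcl2, Cxcl3 and Cxcl5, chemokines that draw neutrophils, and Csf3, which encodes the neutrophil growth factor G-CSF, are described here in tumour-associated macrophages. These 5 of the 18042 genes listed were chosen by name, with their fold changes in these libraries already known, so their levels and fold changes are given as a description and without p-values. All 5 passed the filter on low counts, although Cxcl5 and Csf3 reached its level of 0.586 CPM (counts scaled to a common library size; the levels below also use TMM factors) in only 2 of the 3 IN@OMVs libraries, on the scale of total counts that the filter uses. Wild-type female C57BL/6 mice of 6 to 8 weeks carried subcutaneous tumours of MC38, a mouse colon carcinoma line. On day 9 the Control mice received solvent into the tumour (PBS, per the sample descriptions), the OMVs mice received OMVs, and the IN@OMVs mice received IN@OMVs. Both vesicle groups were given 625 µg of vesicle protein per kg of body weight, labelled as 12.5 µg per mouse. CD11b+ F4/80+ cells were then sorted, and poly(A) RNA was sequenced from 3 libraries a group. The labels spell out neither OMVs nor IN, and they give neither the time from injection to harvest nor whether a library is 1 mouse or a pool. The p-values given for other genes therefore measure only the spread between these libraries.

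The chemokines share a Glu-Leu-Arg motif before their first cysteines and signal through Cxcr2 on neutrophils, which follow them out of the blood. G-CSF acts through Csf3r to drive the production of neutrophils in bone marrow, their release and their survival. In macrophages these genes belong to the acute inflammatory response: bacterial products sensed by Toll-like receptors, and the cytokines IL-1 and TNF, switch them on through NF-kappa B, and their AU-rich transcripts are short-lived. In tumours such factors are known for bringing in neutrophils and related suppressive myeloid cells.

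Cxcl1, Cxcl2 and Cxcl3 lie close together on mouse chromosome 5, and the 120 bases before each gene start are shown because the RNAs of these neighbours differed in their response. RefSeq (GRCm38.p6) gave promoters for 3 of the 5 genes. The windows are chr5:90891125-90891244 for Cxcl1, chr5:90903779-90903898 for Cxcl2 and chr5:90785981-90786100 for Cxcl3, all on the plus strand and read 5′ to 3′. Capitals mark matches to a kappa B-like motif, GGGNNTTTCC on either strand, and to a TATA-box-like motif, ATAAAAGG.
Cxcl1: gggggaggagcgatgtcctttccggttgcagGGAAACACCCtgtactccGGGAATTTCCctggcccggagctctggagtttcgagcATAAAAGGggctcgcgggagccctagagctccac
Cxcl2: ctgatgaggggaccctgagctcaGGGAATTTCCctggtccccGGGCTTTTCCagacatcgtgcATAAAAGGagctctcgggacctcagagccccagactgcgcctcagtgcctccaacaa
Cxcl3: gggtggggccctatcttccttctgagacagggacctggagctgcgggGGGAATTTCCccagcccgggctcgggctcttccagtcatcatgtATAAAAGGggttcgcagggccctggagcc
GGGAATTTCC occurred in all 3 windows, ending 62 bases before the start of Cxcl1, 88 before that of Cxcl2 and 64 before that of Cxcl3. Cxcl1 held another match on the minus strand (GGAAACACCC as printed), 80 to 89 bases before the start, and Cxcl2 held GGGCTTTTCC, 69 to 78 bases before. The TATA-box-like letters lay 27 to 34 bases before the start of Cxcl1, 50 to 57 before that of Cxcl2 and 22 to 29 before that of Cxcl3. Over the 250 upstream bases of 32851 RefSeq promoters, on either strand, the kappa B-like motif occurred in 1.41% and the TATA-box-like motif in 1.54%. Both motifs were picked after these promoters had been read, and a match is a description of letters, not evidence of binding.

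The 9 libraries summed to between 16813230 and 17288322 expected counts, and the expected counts of all 5 genes were whole numbers in every library, with none divided with another sequence. Macrophage markers were at a mean log2 CPM of 9.72 to 10.22 in every library. The 11 epithelial markers summed to 53.0 to 69.6 CPM in Control, 49.7 to 54.9 with OMVs and 41.2 to 46.7 with IN@OMVs, most of it Cdh1 (35.1 to 63.3 CPM over the libraries). Lgals4 was at 2.99 to 4.66 CPM and Epcam at 0.466 to 1.43 CPM, the keratin gene Krt8 stayed between 0 and 0.172 CPM, and Cldn4 was at 0 throughout. Of the 3 epithelial markers tested, Cdh1 was called lower with IN@OMVs than Control (-0.55 ± 0.11, edgeR adjusted p = 0.0222) and 0 were called by edgeR or DESeq2 in the other comparisons, each with 1 lower at an unadjusted p under 0.05; without the libraries numbered 1, 1 was called lower with IN@OMVs in both comparisons. Their part in the results was not tested. The 3 libraries numbered 1, 1 in each group, stood apart with T cell markers at a mean log2 CPM of 4.03 to 4.19, against 1.77 to 2.98 in the other 6. In bulk RNA from sorted cells, fewer cells of a type and less RNA per cell cannot be told apart.

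Cxcl1, a main ligand of Cxcr2, was lowest with IN@OMVs and highest with OMVs. Its level was 24.3, 26.5 and 27.3 CPM in the Control libraries. The OMVs libraries held 52.3, 88.1 and 51.0 CPM, and the IN@OMVs libraries 7.94, 10.6 and 8.50 CPM. The 3 groups did not overlap, and the widest spread was among the OMVs libraries, of which the second was the highest. Group means were 26.0 ± 1.58, 63.8 ± 21.1 and 9.02 ± 1.41 CPM (SD, n = 3 each) for Control, OMVs and IN@OMVs. Relative to Control, the ratio of means was 2.45-fold higher with OMVs (log2 fold change 1.29 ± 0.21, SE of the edgeR fit) and 2.89-fold lower with IN@OMVs (-1.53 ± 0.22). Between the vesicle groups the log2 fold change was -2.82 ± 0.22, or 7.07-fold lower with IN@OMVs. Leaving out the second OMVs library moved the fold of OMVs against Control to 0.99 on the log2 scale.

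**Figure D1:**
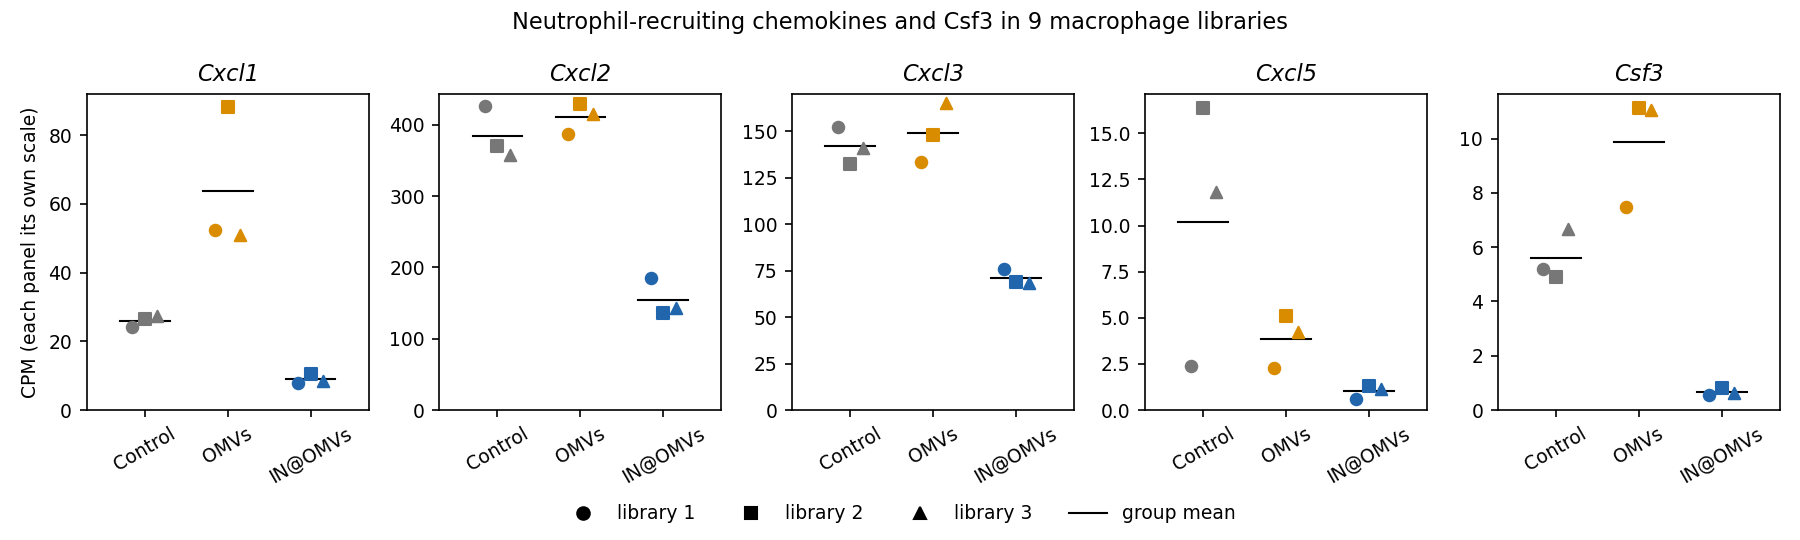
Level of each gene in CPM (vertical axis, a separate scale starting at 0 in each panel) in the 3 libraries of Control, OMVs and IN@OMVs; symbols give the library number and lines the group mean. The IN@OMVs libraries are the lowest for all 5 genes, while those of OMVs are above Control for Cxcl1 and Csf3 and overlap Control for Cxcl2, Cxcl3 and Cxcl5.

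Cxcl2, a ligand of Cxcr2 that macrophages make in quantity, was the most abundant of the 5 by counts. It was at 426, 370.4 and 358 CPM in Control, at 388, 429 and 415 CPM with OMVs, and at 185, 136 and 143 CPM with IN@OMVs. The Control and OMVs libraries overlapped, and all 3 IN@OMVs libraries lay below them. Means were 385 ± 36.2, 411 ± 21.2 and 155 ± 26.7 CPM (SD, n = 3). The log2 fold change of OMVs against Control was 0.09 ± 0.12, with a 95% interval of -0.17 to 0.36. IN@OMVs differed by -1.31 ± 0.12 from Control and by -1.41 ± 0.12 from OMVs, which is 2.48-fold and 2.65-fold lower.

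Cxcl3, the remaining close relative in the cluster, had the same order of groups as Cxcl2 and a smaller range. Its level was 152, 132 and 141 CPM in Control, 134, 148 and 165 CPM with OMVs, and 76.1, 68.6 and 68.3 CPM with IN@OMVs. Control and OMVs again overlapped, and IN@OMVs was apart from both. Means were 142 ± 10.2, 149 ± 15.9 and 71.0 ± 4.42 CPM (SD, n = 3). With OMVs the log2 fold change relative to Control was 0.07 ± 0.09 (95% interval -0.13 to 0.27). IN@OMVs lay -0.997 ± 0.09 from Control and -1.07 ± 0.09 from OMVs.

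Because Cxcl1 and Cxcl2 behaved differently with OMVs, their counts were set against each other within each library. There were 5.70 to 7.64 Cxcl1 counts per 100 Cxcl2 counts in Control and 12.3 to 20.5 with OMVs. With IN@OMVs the ratio was 4.29 to 7.80, which overlapped Control. For Cxcl3 there were 35.7 to 39.4 counts per 100 of Cxcl2 in Control, 34.5 to 39.9 with OMVs and 41.1 to 50.5 with IN@OMVs. The Control and OMVs ratios overlapped, and those of IN@OMVs lay above both. These ratios use counts without correction for transcript length and were not tested.

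Cxcl5, made in many tissues mainly by epithelial and stromal cells, was low and the most scattered of the 5. Its level was 2.38, 16.4 and 11.8 CPM in Control, from 40, 280 and 205 counts. With OMVs it was 2.30, 5.07 and 4.24 CPM, from 40, 87 and 71 counts, and with IN@OMVs 0.616, 1.31 and 1.16 CPM, from 10, 23 and 20 counts. Control library 1 sat among the OMVs libraries, and all IN@OMVs libraries were below both other groups. Means were 10.2 ± 7.13, 3.87 ± 1.42 and 1.03 ± 0.367 CPM (SD, n = 3). Relative to Control the log2 fold change was -1.40 ± 0.59 with OMVs and -3.29 ± 0.67 with IN@OMVs, and between the vesicle groups it was -1.89 ± 0.68. Leaving out Control library 2 moved the value with OMVs to -0.88.

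In each group the library numbered 1 had the lowest Cxcl5. Col1a1, the collagen gene that marks fibroblasts, was also lowest in library 1 of each group, at 212 CPM in Control, 301 with OMVs and 46.7 with IN@OMVs, against 315 to 757 CPM in the other 6 libraries. It was picked after its values were seen, and 4 of the 12 fibroblast markers had this pattern in every group. Library 1 was the lowest for 11 of the 12 in Control and 11 with IN@OMVs but for 4 with OMVs, and Thy1 was highest in library 1 of every group. The 12 fibroblast markers, all of them measured, had a mean log2 CPM of 6.87 to 7.42 in Control, 6.77 to 7.05 with OMVs and 5.31 to 7.14 with IN@OMVs. Their summed level was 4862 to 6625, 4019 to 5325 and 1732 to 5466 CPM in the same order, and no fibroblast marker was at 0 in any library. Of the 12, 0 were called by edgeR in any of the 3 comparisons, 0 had an unadjusted p under 0.05, and DESeq2 called 0. Without the 3 libraries numbered 1, 3 fell and 1 rose with IN@OMVs against Control, and 2 fell with OMVs against Control. In IN@OMVs libraries 2 and 3 the mean of the 12 fibroblast markers was 7.01 and 7.14. That is above Control 1 (6.87) and below Control 2 (7.42) and Control 3 (7.17). Single markers went both ways against Control 2 and 3. Col1a1 was at 315 and 389 CPM against 757 and 539, and Pdgfrb at 54.8 and 50.9 against 40.7 and 34.0. Both were picked after their values were seen. Cxcl5 was at 1.31 and 1.16 CPM in IN@OMVs libraries 2 and 3, below all Control libraries. The part of fibroblast RNA in the level of Cxcl5 was not tested.

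**Figure D2:**
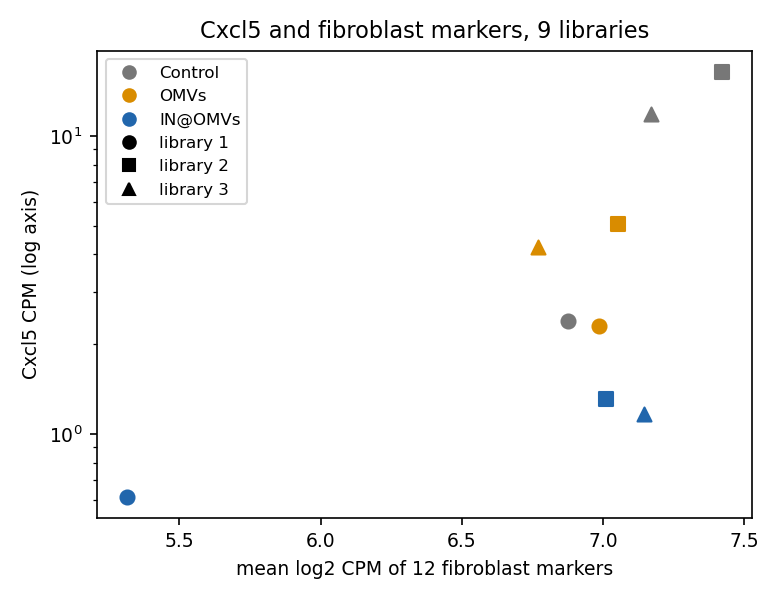
Cxcl5 in CPM (vertical log axis) against the mean log2 CPM of 12 fibroblast markers (horizontal axis), 1 point per library, coloured by group and shaped by library number. IN@OMVs library 1 stands apart at 5.31 on the marker axis. IN@OMVs libraries 2 and 3 lie above Control 1 and below Control 2 and 3 in the marker mean, and below all Control libraries in Cxcl5.

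Csf3 was low in Control, higher with OMVs and close to the filter level with IN@OMVs. It was at 5.19, 4.91 and 6.68 CPM in Control, from 87, 84 and 116 counts. The OMVs libraries held 7.47, 11.1 and 11.1 CPM, from 130, 191 and 185 counts, and the IN@OMVs libraries 0.554, 0.798 and 0.640 CPM, from 9, 14 and 11 counts. The 3 groups did not overlap. Means were 5.59 ± 0.954, 9.88 ± 2.09 and 0.664 ± 0.124 CPM (SD, n = 3). Relative to Control the log2 fold change was 0.82 ± 0.20 with OMVs and -3.06 ± 0.25 with IN@OMVs, and IN@OMVs lay -3.88 ± 0.25 from OMVs. The last of these is a 14.9-fold ratio of means and ranked 10th from the lowest fold change of 13090 genes tested.

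**Figure D3:**
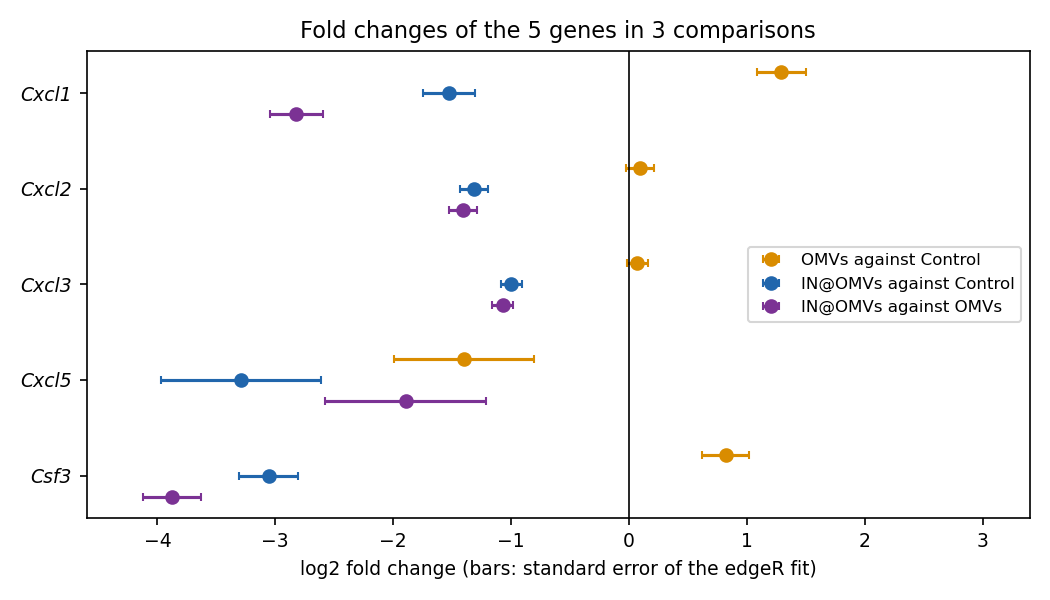
Log2 fold change (horizontal axis) of each gene in 3 comparisons, with bars of 1 standard error from the edgeR fit; both comparisons with Control use the same Control libraries. Cxcl1 and Csf3 lie right of 0 for OMVs against Control at 1.29 and 0.82, and all 5 genes lie left of 0 in both comparisons of IN@OMVs.

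At an adjusted p under 0.05, edgeR's quasi-likelihood test called Cxcl1 alone of the 5 as higher with OMVs than Control, where 0.298% of all genes tested were called higher and 0.122% lower. Of the 5, 5 were called lower with IN@OMVs than Control, against 3.24% of all genes called lower and 3.32% higher. In IN@OMVs against OMVs 4 of 5 were called lower, all but Cxcl5, against 1.75% called lower and 1.10% higher. The genes were chosen on these same contrasts, so nothing is read from the counts. The call of Cxcl1 with OMVs was lost when any library other than IN@OMVs 1 was left out, with log2 fold changes from 0.99 to 1.43, and the call of Cxcl5 against Control was lost without Control 2, Control 3, IN@OMVs 2 or IN@OMVs 3 (-2.77 to -3.50). Cxcl5 was called lower with IN@OMVs than OMVs once Control 1 was left out (-1.89). Without the 3 libraries numbered 1, a choice made after seeing the data, Cxcl1 (1.37 ± 0.20) and Csf3 (0.93 ± 0.17) were called higher and Cxcl5 (-1.60 ± 0.19) lower with OMVs than Control, and all 5 were called lower with IN@OMVs in both comparisons. That fit called more genes of every kind. With OMVs against Control it called 213 higher and 100 lower, against 39 and 16 in the main fit. With IN@OMVs it called 638 higher and 837 lower than Control, against 434 and 424. Relative to OMVs it called 281 higher and 563 lower, against 144 and 229.

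Per kilobase of the longest coding transcript in GENCODE M21, the order of levels in Control was Cxcl2 (207 ± 19.5 CPM per kb), Cxcl3 (140 ± 10.0), Cxcl1 (27.3 ± 1.66), Cxcl5 (6.47 ± 4.53) and Csf3 (3.96 ± 0.675) (SD, n = 3). Cxcl5 and Csf3 overlapped, and no other neighbours in that order did. With OMVs the order was Cxcl2 (221 ± 11.4), Cxcl3 (147 ± 15.6), Cxcl1 (66.9 ± 22.1), Csf3 (6.996 ± 1.48) and Cxcl5 (2.46 ± 0.904), with no overlap between neighbours. With IN@OMVs it was Cxcl2 (83.3 ± 14.4), Cxcl3 (69.9 ± 4.35), Cxcl1 (9.46 ± 1.47), Cxcl5 (0.654 ± 0.233) and Csf3 (0.470 ± 0.0876), where Cxcl2 overlapped Cxcl3 and Cxcl5 overlapped Csf3. The summed level of the 5 genes was 544 to 610 CPM in Control, 583 to 682 with OMVs and 217 to 271 with IN@OMVs, most of it Cxcl2 and Cxcl3.

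Within groups the genes did not all vary together. Over the 9 libraries the log2 CPM of Cxcl2 and Cxcl3 had Pearson r = 0.987, and after the group means were removed r = 0.67. For Cxcl1 and Cxcl2 these values were 0.873 and -0.20, and for Cxcl1 and Csf3 0.954 and 0.56. These are descriptions over libraries that share a group structure.

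Receptors of these ligands were also lower with IN@OMVs. Cxcr2, the neutrophil receptor of the chemokines, was at 44.3, 27.2 and 28.8 CPM in Control, 24.8, 18.7 and 21.8 with OMVs, and 7.57, 4.11 and 4.89 with IN@OMVs. It fell with IN@OMVs by 2.60 ± 0.26 on the log2 scale against Control (edgeR adjusted p = 0.000637) and by 1.98 ± 0.26 against OMVs (adjusted p = 0.00497), although some of its expected counts were fractional, which marks reads shared with another sequence. With OMVs it was -0.62 ± 0.24 against Control, which did not pass. Csf3r, the receptor of G-CSF, was at 160 ± 23.4, 154 ± 11.2 and 90.8 ± 19.9 CPM (SD, n = 3) in Control, OMVs and IN@OMVs. It fell by 0.81 ± 0.15 against Control (edgeR adjusted p = 0.0158) and by 0.76 ± 0.15 against OMVs (adjusted p = 0.0351). The Csf3r call against Control was lost without IN@OMVs 3 (adjusted p = 0.0692) or Control 1 (0.0577), and that against OMVs without any of IN@OMVs 2, IN@OMVs 3, Control 2, Control 3 or any OMVs library (0.0638 to 0.137). Cxcr1 and the decoy receptor Ackr1 did not pass the low-count filter.

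Both receptors are neutrophil markers, and so the whole neutrophil list is given beside them. Of 18 neutrophil markers 16 were tested, and with IN@OMVs 15 fell against Control (median log2 fold change -2.62) and 14 against OMVs (median -2.20), against a median of 0.00 over all genes in both. With OMVs against Control 0 were called, 9 had an unadjusted p under 0.05, all lower, DESeq2 called 4 lower and the replicate block 1 lower, and the median was -0.48. Their summed level was 1392 to 1975 CPM in Control, 1021 to 1322 with OMVs and 317 to 398 with IN@OMVs. Ly6g, the defining neutrophil surface gene, was at 3.33 to 5.25 CPM in Control, 1.32 to 2.09 with OMVs and 0.114 to 0.123 with IN@OMVs, and Mpo and Elane were at 0 to 0.298 CPM throughout. With OMVs the summed neutrophil markers were below Control, Cxcl1 and Csf3 were above it, and Cxcl2, Cxcl3 and Cxcl5 overlapped it. The part of neutrophil RNA in these levels was not tested. Nor was its part in the fall of Cxcr2, Csf3r and the 5 genes with IN@OMVs. Of 12 monocyte markers, 9 fell against Control with IN@OMVs, 5 against OMVs, and 3 with OMVs against Control. The part of monocyte RNA was not tested either. Of all genes tested, 3.24%, 1.75% and 0.122% were called lower in these comparisons, in the same order.

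**Figure D4:**
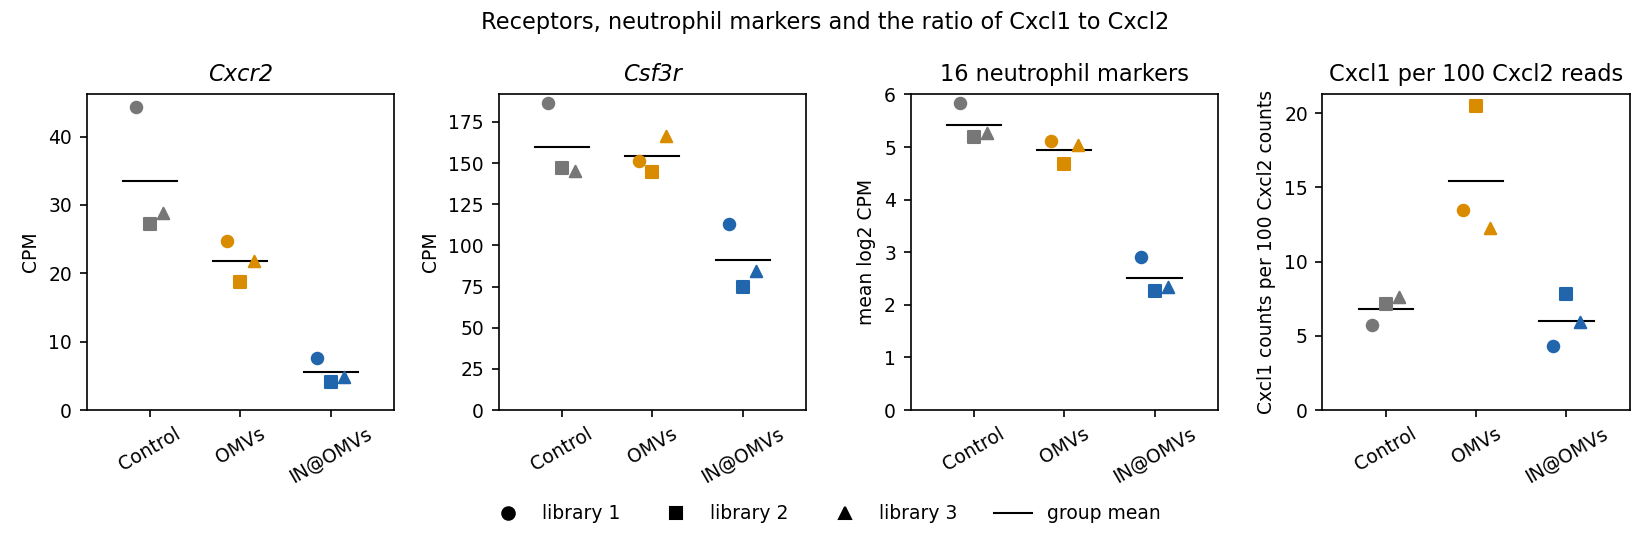
Cxcr2 and Csf3r in CPM, the mean log2 CPM of 16 neutrophil markers, and Cxcl1 counts per 100 Cxcl2 counts, in 3 libraries a group with the group mean as a line and axes starting at 0. The receptors and markers are lowest with IN@OMVs, whereas the ratio of Cxcl1 to Cxcl2 is highest in the OMVs libraries, at 12.3 to 20.5.

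Across 90 further pathway genes, of which 84 were tested, many were lower and none higher past the threshold with IN@OMVs. Against Control 27 fell and 0 rose (median -0.25), and 4 had an unadjusted p under 0.05 in the upward direction, with none of those called by DESeq2. Against OMVs 24 fell and 0 rose (median -0.32), with 0 upward at an unadjusted p under 0.05 and 0 by DESeq2. With OMVs against Control C3 alone rose and 0 fell (median 0.01), while DESeq2 called 1 higher and 3 lower, and 9 were higher and 7 lower at an unadjusted p under 0.05. The median over all genes was 0.00 in each comparison. Of all genes tested, 3.24% were called lower and 3.32% higher with IN@OMVs against Control. Against OMVs these shares were 1.75% and 1.10%, and with OMVs against Control 0.122% and 0.298%. The lists were chosen with earlier results of these data known, so their counts are descriptions. Without the 3 libraries numbered 1, 38 fell and 1 rose (Csf1) with IN@OMVs against Control, and 41 fell and 1 rose (Kitl) against OMVs. Over all genes that fit called 837 lower and 638 higher against Control, and 563 lower and 281 higher against OMVs. In that smaller set 6 rose and 4 fell with OMVs against Control, and those that rose were Nfkbia (0.33 ± 0.06), Nfkbie (0.35 ± 0.06), Bcl3 (0.45 ± 0.07), Zc3h12a (0.35 ± 0.08), Il1rn (0.44 ± 0.07) and C3 (0.73 ± 0.09). Nfkbia, Nfkbie and Bcl3 encode members of the I-kappa B family and Il1rn the antagonist of IL-1; Kitl, Nfkbie, Bcl3 and Il1rn were named after their values were seen.

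Ppbp was the sole other chemokine of this class that could be tested, and it did not share the direction. It was at 4.96 ± 1.21 CPM in Control, 5.72 ± 1.91 with OMVs and 8.70 ± 1.47 with IN@OMVs (SD, n = 3). The IN@OMVs libraries, at 7.22 to 10.2 CPM, lay above those of Control, at 3.64 to 5.99, but the log2 fold change of 0.81 ± 0.28 did not pass (edgeR adjusted p = 0.141). Cxcl15 was below the filter.

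On the list of cytokines that induce these genes and their receptors, 16 were tested, and with IN@OMVs 8 fell against Control and 6 against OMVs. That list also holds Il1rn, the antagonist of IL-1, and Il1r2, which is among the neutrophil markers above. Il1b, which encodes an IL-1 that induces such chemokines, was at 593, 420.5 and 418 CPM in Control, at 430, 511 and 544 with OMVs, and at 155, 110.0 and 130 with IN@OMVs. It fell by 1.86 ± 0.17 against Control (edgeR adjusted p = 0.000488) and by 1.91 ± 0.17 against OMVs (adjusted p = 0.000838), and was 0.05 ± 0.17 with OMVs against Control. Il6 fell by 3.53 ± 0.34 (edgeR adjusted p = 0.000564), the cytokine gene Osm by 1.50 ± 0.14 (0.000504) and Il1a by 1.46 ± 0.15 (0.000678) against Control, and all 3 fell against OMVs. Tnf, another inducer, did not follow, at 26.8 ± 2.58, 30.4 ± 3.45 and 34.4 ± 8.45 CPM (SD, n = 3) in Control, OMVs and IN@OMVs. Il17a was below the filter. Tnf was named after its values were seen.

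Among 13 genes of lipopolysaccharide sensing, 2 fell with IN@OMVs against either group and 0 rose, although 2 were higher than Control at an unadjusted p under 0.05 and 0 in DESeq2. Cd14, the co-receptor that hands lipopolysaccharide to Tlr4, fell by 1.07 ± 0.12 against Control (edgeR adjusted p = 0.00121) and by 0.93 ± 0.12 against OMVs (0.00497). Irak3, a brake on this pathway, fell by 0.90 ± 0.13 against Control (0.00445). Tlr4 itself was at 157 ± 5.67, 164 ± 17.5 and 186 ± 19.2 CPM (SD, n = 3) in Control, OMVs and IN@OMVs, with no call in any comparison. With OMVs against Control 0 of the 13 were called, and 0 had an unadjusted p under 0.05 or a DESeq2 call.

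**Figure D5:**
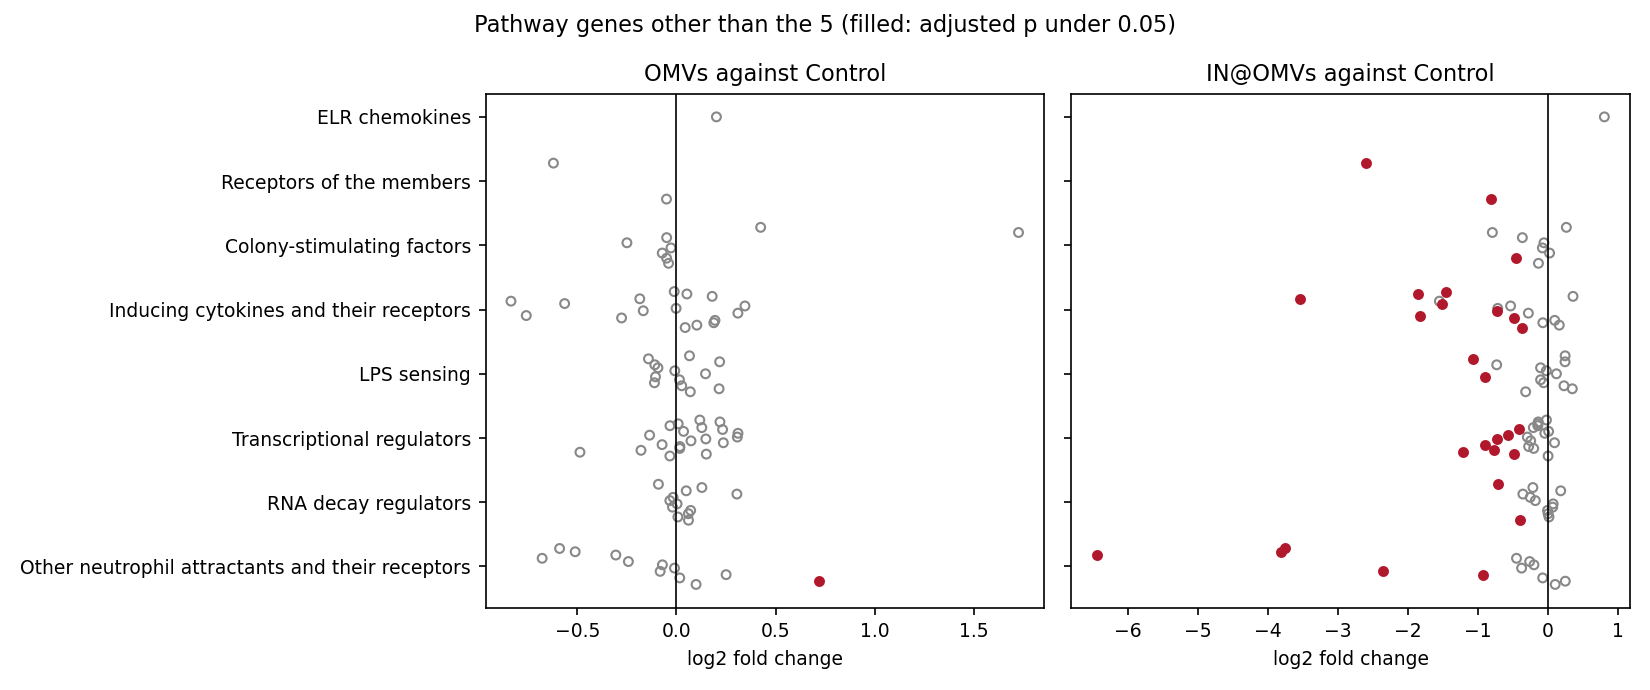
Log2 fold change (horizontal axis) of the 84 tested pathway genes other than the 5, by list, with OMVs (left) and IN@OMVs (right) relative to Control, on separate scales; filled points passed an adjusted p under 0.05. C3 is the sole filled point at left, and the 27 filled points at right all lie below 0.

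Of 20 transcriptional regulators tested, 7 fell with IN@OMVs against Control and 6 against OMVs. Egr1 fell by 1.22 ± 0.18 (edgeR adjusted p = 0.00482) and Junb, an AP-1 subunit, by 0.77 ± 0.09 (0.00113) against Control. Fos (-0.90 ± 0.19), Tnfaip3, which restrains NF-kappa B (-0.73 ± 0.15), and Nfkbiz, a co-activator of secondary NF-kappa B targets (-0.57 ± 0.12), also passed, but each lost its call without any of Control 1, Control 2, IN@OMVs 2 or IN@OMVs 3. Fos and Nfkbiz lost theirs without Control 3 too, and Nfkbiz without OMVs 2 or OMVs 3. The edgeR adjusted p after these omissions was 0.0622 to 0.083 for Fos, 0.0539 to 0.083 for Tnfaip3 and 0.0545 to 0.11 for Nfkbiz. Nfkbia, the inhibitor of NF-kappa B that is itself a target of it, fell by 0.64 ± 0.08 against OMVs (edgeR adjusted p = 0.00497), as did Hif1a, by 0.64 ± 0.11 (0.016), whose call was lost without IN@OMVs 2, IN@OMVs 3, OMVs 2 or OMVs 3 (0.051 to 0.0777).

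The regulators of RNA decay listed include both proteins that speed the decay of inflammatory transcripts and Elavl1 and Arid5a, which stabilise them. Of 12 tested, 2 fell with IN@OMVs against either group, and 0 rose at an adjusted or an unadjusted p under 0.05 or in DESeq2. Zfp36, which encodes tristetraprolin, was at 903 ± 54.4, 848 ± 75.8 and 551 ± 133 CPM (SD, n = 3) in Control, OMVs and IN@OMVs and fell by 0.71 ± 0.15 against Control (edgeR adjusted p = 0.0257), a call lost without any 1 Control library, IN@OMVs 2, IN@OMVs 3 or OMVs 2 (0.0502 to 0.0981). Zc3h12a, which encodes the endonuclease Regnase-1, fell by 0.66 ± 0.10 against OMVs (edgeR adjusted p = 0.00976) and was -0.36 ± 0.10 against Control (0.0794); the call against OMVs was lost without OMVs 2 (0.0525) or OMVs 3 (0.0522). N4bp1 was -0.40 ± 0.09 against Control (edgeR adjusted p = 0.0416, and 0.0705 with the replicate number as a block), a call lost without any library except IN@OMVs 1 (0.0553 to 0.155).

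Of the other colony-stimulating factors and their receptors 8 were tested, and 1 passed, Csf2rb, a shared receptor subunit, at -0.46 ± 0.11 with IN@OMVs against Control (edgeR adjusted p = 0.0434, and 0.0658 with the replicate block), a call lost without any library except IN@OMVs 1 (0.0577 to 0.15). Csf1, the macrophage growth factor, was at 78.4, 73.8 and 73.2 CPM in Control, 109, 114 and 79.6 with OMVs, and 61.0, 106 and 104 with IN@OMVs, with no call. Without IN@OMVs 1 it was 0.48 above Control (edgeR adjusted p = 0.0335). IN@OMVs 1 was also the library lowest in fibroblast markers, at a mean log2 CPM of 5.31. In Control the library lowest in these markers, Control 1, had the highest Csf1. The part of fibroblast RNA in Csf1 was not tested. Csf2, which encodes GM-CSF, gave 1 to 10 counts a library in Control, 16 to 20 with OMVs and 0 to 7 with IN@OMVs, and no comparison passed, although without IN@OMVs 1 it was -4.03 against OMVs (edgeR adjusted p = 0.0279).

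Other neutrophil attractants included the deepest falls of the pathway lists. Saa3, an acute-phase protein gene, was at 537 ± 83.8, 435 ± 89.7 and 6.16 ± 1.57 CPM (SD, n = 3) in Control, OMVs and IN@OMVs, and fell by 6.44 ± 0.25 against Control (edgeR adjusted p = 5.88e-06). Against Control S100a8 fell by 3.75 ± 0.20 on the log2 scale (edgeR adjusted p = 2.97e-05), and S100a9 also fell (-3.80 ± 0.30, 0.000188), as did Fpr1, a receptor of bacterial formyl peptides (-2.35 ± 0.15, 7.15e-05). S100a8 and S100a9 are also among the neutrophil markers above. C3, the source of complement attractants, rose with OMVs by 0.72 ± 0.10 (edgeR adjusted p = 0.0247), from 767 ± 33.3 to 1261 ± 143 CPM (SD, n = 3). That call was lost with the replicate block (0.0748) and without any 1 Control library, OMVs 2, OMVs 3 or IN@OMVs 3 (0.0577 to 0.16).

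The genes nearest in pattern were taken by the Pearson correlation of log2 CPM over the 9 libraries, among 10766 genes of at least 5 CPM. For Cxcl2 they were Socs3, a feedback inhibitor of cytokine signalling (r = 0.996), Il1b (0.994) and St3gal1 (0.990), and for Cxcl3 St3gal1 (0.994), Il1b (0.992) and Il1a (0.991). Socs3 was at 448 ± 25.0, 467 ± 40.3 and 234 ± 31.5 CPM (SD, n = 3) in Control, OMVs and IN@OMVs. For Csf3 the nearest were Slc39a10 (0.986), Map4k4 (0.982) and St3gal1 (0.982). For Cxcl1 they were Noct (0.989), Rnd1 (0.975) and Nqo2 (0.969), all highest with OMVs and lowest with IN@OMVs; the range of Nqo2 was narrow, from 41.1 ± 0.282 with IN@OMVs to 43.9 ± 0.496 CPM with OMVs (SD, n = 3), and a correlation takes no account of the size of a change. For Cxcl5 they were Bora (0.983), Palld (0.979) and Bpnt2 (0.970), none of them called in any comparison by edgeR; with the replicate block Bora (edgeR adjusted p = 0.0378) and Palld (0.0289) were called lower with IN@OMVs than Control.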

How the data were processed

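RNA-seq of sorted macrophages gave 9 libraries in 3 groups. The deposited table holds expected counts per gene, a unit settled from the values; per the submitters' processing notes BWA, Bowtie2 and RSEM were used, without versions, and the builds mm9 and hg19 are named, and the table holds no coordinates; those of the promoters are RefSeq's, on GRCm38.p6. Expected counts were rounded and fitted with edgeR 4.0.16 in R 4.3.3 (quasi-likelihood, TMM, filterByExpr on 3 groups, all 9 libraries, 6 residual degrees of freedom, biological coefficient of variation 0.131), which left 13090 genes, with 799 of 18042 at 0 throughout. P-values were adjusted by Benjamini-Hochberg over these genes, at a threshold of 0.05, and the procedure was tested on simulated data. Log2 CPM used a prior count of 2. DESeq2 1.42.0 and limma 3.58.1 were alternatives.

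The 5 genes and all lists were chosen with earlier results of these data known. Named genes were the 5, up to 4 called genes with the smallest p per pathway list and comparison, 10 set genes, and the 3 nearest in pattern to each of the 5. To check pairing, each library's deviations from its group mean were correlated between groups. Libraries sharing a number with Control gave r = 0.53, 0.37 and 0.12 (OMVs) and 0.45, 0.31 and 0.15 (IN@OMVs). Between the vesicle groups the values were 0.07, 0.51 and -0.37. Unlike numbers could be as close: Control 3 gave 0.35 against OMVs 2 and 0.36 against IN@OMVs 2. Control 2 gave 0.08 against OMVs 3 and 0.29 against IN@OMVs 3. Unlike numbers that included a library numbered 1 gave -0.49 to -0.13 against Control. Between the vesicle groups IN@OMVs 1 gave 0.07 against OMVs 1 and 0.44 against OMVs 3. Deviations from a group mean cancel within the group, so a positive value for like numbers pushes those for unlike numbers down. These correlations therefore cannot decide the pairing. The main fit was unpaired, and the replicate number as a block was an alternative. The labels do not say what a number shares. At totals of 16813230 to 17288322 counts a library, Csf3 with IN@OMVs rested on 9 to 14 counts.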

Additional observations from a re-analysis of the deposited data

How the results depend on the processing

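Every named pathway gene that was called kept its direction under all 17 alternatives, and 13 of 20 such calls in IN@OMVs against Control, 12 of 18 in IN@OMVs against OMVs and 0 of 1 in OMVs against Control held in every one. Genes called in OMVs against Control numbered 55, and 207 with DESeq2, 36 with limma-voom, 115 with only the 2 groups in the fit, 20 with the replicate block and 313 without the libraries numbered 1; in IN@OMVs against Control 858, and 519 with 2 groups and 1475 without those libraries; in IN@OMVs against OMVs 373, and 646 with DESeq2, 195 with 2 groups and 844 without those libraries. Of the 5 genes, OMVs against Control called 1, but 0 with limma-voom and 3 without the libraries numbered 1. Of the pathway genes it called 1, and 4 with DESeq2, 2 with library size only, 3 with 2 groups, 0 with the replicate block and 10 without those libraries; IN@OMVs against Control called 27, and 17 with 2 groups, and IN@OMVs against OMVs 24, and 42 without those libraries. The causes were not tested. With the replicate block the calls in IN@OMVs against Control and against OMVs were 673 and 306 genes, and 23 and 20 pathway genes; it changed no call of the 5 genes. Limma-voom ended the calls of Cxcl1 in OMVs against Control and of Cxcl5 in IN@OMVs against Control, and the 2-group fit ended the latter.

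Leaving out 1 library gave 0 to 266, 393 to 1635 and 180 to 786 genes called in the 3 comparisons, in the order above, 0 to 1, 4 to 5 and 4 to 5 of the 5 genes, and 0 to 5, 17 to 41 and 13 to 38 pathway genes. Small uncalled folds changed sign. In OMVs against Control Csf3r was 0.077 without Control 1 (-0.11 to 0.077 over the omissions) and 0.089 without the libraries numbered 1, Il1b -0.022 without OMVs 3, -0.030 without Control 2 and -0.033 without Control 3 (-0.033 to 0.24), and Tlr4 -0.013 without OMVs 3 (-0.013 to 0.14). Csf2 in IN@OMVs against Control was 0.028 without Control 1 (-2.31 to 0.028), and Csf1 in IN@OMVs against OMVs 0.055 without IN@OMVs 1 (-0.30 to 0.055) and 0.11 without the libraries numbered 1. Cxcl3 in OMVs against Control was -0.0094 without OMVs 3. Of the 5 genes, Csf3 and Cxcl5 with IN@OMVs rest on the fewest counts, 9 to 23 a library, and Csf2, at 0 to 7, and Il6, at 3 to 10, rest on fewer or as few.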
